A study of Macaca mulatta with 28 samples.

Results

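The exons described here are 297 exons, in 268 genes, whose log2 reads relative to the mean over their gene's exons fell into 2 separate ranges across 28 animals. They come from total RNA of brain blocks of male rhesus macaques (Macaca mulatta). Each block was dissected around the amygdala's central nucleus (CeA), which takes part in fear, stress and alcohol drinking. All 28 animals drank ethanol by choice, and none was kept free of ethanol. Induction with 4% ethanol lasted about 90 days, and open access for 22 hours of each day then ran for over 12 months. Intake set 4 categories, here LD for 10 low, BD for 5 binge, HD for 7 heavy and VHD for 6 very heavy drinkers. The BD label asks for 2 g/kg or more on 55% of days or more, with blood ethanol of 80 mg/dl or more reached in each year. The HD label asks for 3 g/kg or more on 20% of days or more. The VHD label asks for a mean daily intake above 3 g/kg, with 10% of days or more above 4 g/kg, and the LD label is given to the remaining animals. There were 4 cohorts: 8 animals were in cohort 4 (aged 8.24 years at induction, 1 of them HD or VHD), 7 in cohort 5 (5.63 years, all 7 HD or VHD), 8 in cohort 7a (4.18 years, 4 of them HD or VHD) and 5 in cohort 7b (5.69 years, 1 of them HD or VHD). These ages are those at induction, and the animals were older at the end of drinking. Each library is 1 animal.

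The exon table gives a score for each exon, its reads after normalization, called normalized reads below. The exons were chosen on these values. Of 156345 listed exons, 109212 exons in 9817 genes had at least 10 normalized reads in at least 5 libraries and lay in a gene with at least 3 such exons; they are called kept exons below. The relative value of an exon in a library is its log2(normalized reads + 1) minus the mean of that quantity over the kept exons of the gene. An exon was taken where the 28 sorted relative values had a gap of at least 1 log2 unit (2-fold) with at least 5 libraries on each side, and where its highest score was at least 20. The libraries below the gap are called the lower range and those above it the upper range. The gap, the ranges and the number of libraries in each are therefore a description and were not tested.

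A gene's exons can be joined in more than 1 way when its primary transcript is spliced. A cassette exon is taken into the messenger RNA or skipped, and the ends of a transcript vary where a gene has more than 1 promoter or polyadenylation site. Neurons use this widely, among others through microexons, very short exons that add a few amino acids to synaptic and signalling proteins. The number of reads over an exon also depends on how a short read that crosses a splice junction is placed on the genome. Which of these applied to an exon was not tested.

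Depth differed between libraries, from 1910514 to 25928489 reads in gene exons (median 16444833). In normalized units 3 reads, a rough upper limit for the mean where the count is 0, came to 1.82 to 24.1. All 9 CeA marker genes and all 3 GABAergic marker genes were above 0 in every library, as were the 3 astrocyte, 3 myelin and 3 microglia markers. The summed CeA markers differed widely between blocks, from 3983 to 41604 normalized reads. Markers of neighbouring tissue did so as well. The summed cholinergic markers ranged from 27.1 to 14178, the 2 listed glutamatergic markers from 112 to 920 and the choroid plexus markers from 219 to 2443. The 2 listed blood markers reached at most 80.8. In such bulk tissue, fewer cells of a type and less RNA per cell cannot be told apart, and the part of cell mixture in the exon ranges was not tested. The exons could not be shown as sequence, and their positions are given in the coordinates of the exon table, of a genome build that the sources used here do not name. The table gives no strand, so exons are numbered by rising coordinate, and exon 1 need not be the exon where transcription starts.

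The gap ran from 1.0 to 4.86 log2 units with a median of 1.31. It was at least 1.5 in 105 of the 297 exons, at least 2 in 45, at least 3 in 11 and at least 4 in 5. The number of libraries in the lower range ran from 5 to 23. The lower range held more libraries than the upper in 172 exons, fewer in 112, and 14 of 28 in 13. The scores themselves, before any division by the gene, did not overlap between the ranges in 279 of the 297 exons (93.9%). In 55 exons every lower library was at 10 normalized reads or less and every upper library at 20 or more. In 96 exons at least 1 lower library was at 0, and in 38 every lower library was at 50 or more. In the shallowest library, BD replicate 1, 3 reads came to 24.1 normalized reads, so a score of 50 is few reads there. A second gap of at least 1 inside a range was present in 26. The exons nearest the threshold on the inside were CERS2 exon 11 of 11, NPEPPS exon 12 of 23 and EIF2A exon 14 of 14, at 1.0005, 1.0009 and 1.0027. Those nearest outside were ASAH1 exon 14 of 14 (0.999), FADS2 exon 12 of 12 (0.999) and ATP8A1 exon 31 of 36 (0.995). No break lay at the threshold, as 78 exons had a gap of 0.9 to 1.0 and 62 a gap of 1.0 to 1.1.

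Several of the exons with the widest gaps lay in genes of energy metabolism (UQCRH, ATP5A1, NDUFB2, ATP5J2 and LDHA). ATP6V1A was a gene of acidification and RPL4 of the ribosome, while DEK, MYL12B, SUMO2 and DBI belonged to none of these groups. The groups were named after the values were seen, and whether the widest gaps favoured them was not tested. Such exons were more frequent in genes with many reads, as given below. The rule for named genes takes the 12 genes with the widest gap, with 1 exon each, and 11 of them are described. In most of them the exon was almost without reads in the lower range while the rest of the gene was read at full depth.

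**Figure D1:**
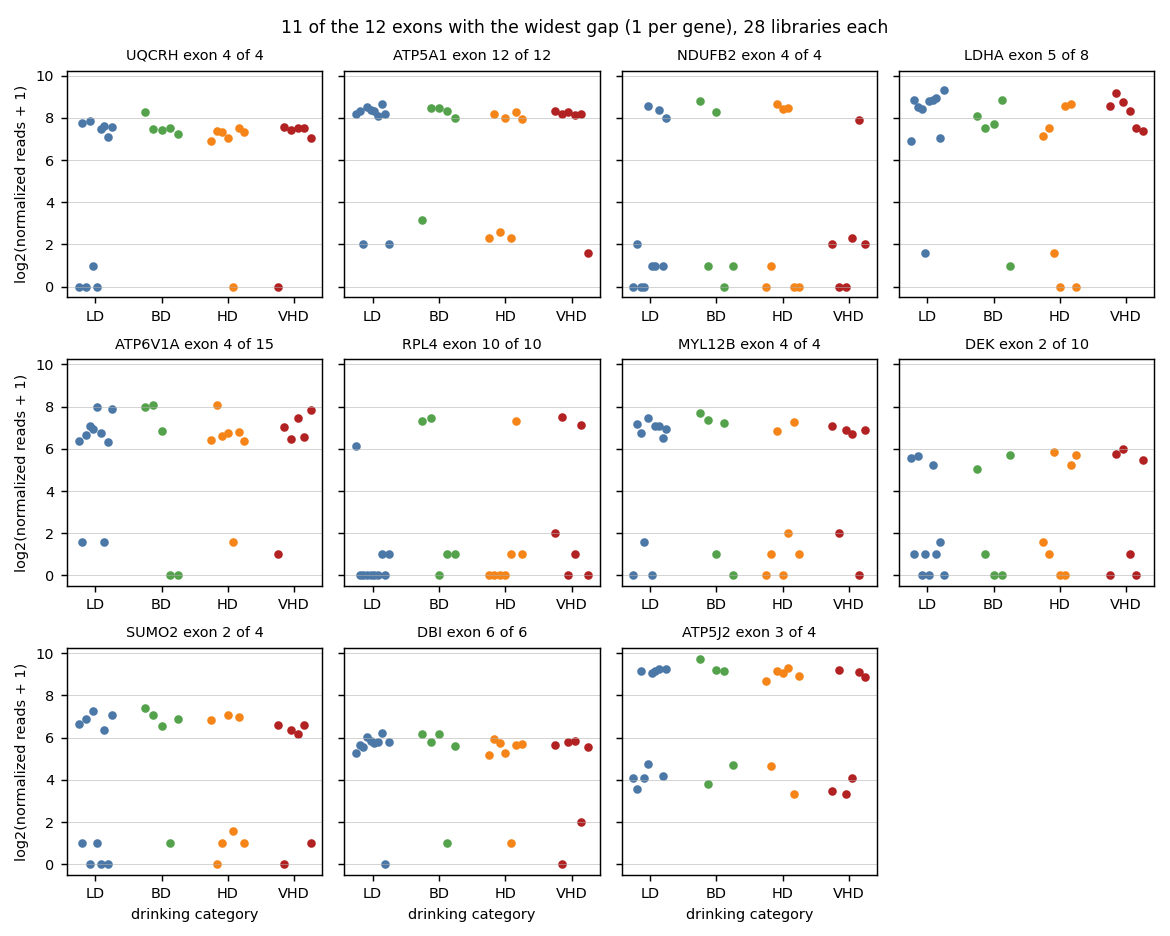
Each panel plots log2(normalized reads + 1) of 1 exon in the 28 libraries, by drinking category (points, 1 per library, coloured by category). The points form 2 bands in every panel, and each of the 4 categories has points in both bands except in the panel of LDHA, where all 6 VHD libraries are in the upper band, and that of UQCRH, where all 5 BD libraries are.

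UQCRH encodes the hinge protein of respiratory complex III. Its exon 4 of 4 (225 bases, chr1:45647739-45647963) had the widest gap of all, 4.86. It had 0 to 1 normalized reads in 6 libraries and 120 to 305 (median 176) in the other 22. In the same 6 libraries the adjacent exon 3 had 447 to 839, so the gene was well expressed there. The upper range held 6 of 10 LD, 5 of 5 BD, 6 of 7 HD and 5 of 6 VHD libraries.

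ATP5A1 encodes the alpha subunit of the mitochondrial ATP synthase. Its exon 12 of 12 (149 bases, chr18:35047187-35047335) had 2 to 8 normalized reads in 7 libraries and 249 to 404 (median 306) in 21. Exon 11 had 628 to 702 in the lower libraries and 603 to 847 in the upper, so it did not separate them. The upper range held 8 of 10 LD, 4 of 5 BD, 4 of 7 HD and 5 of 6 VHD libraries.

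NDUFB2 encodes an accessory subunit of complex I. Its exon 4 of 4 (79 bases, chr7:166659483-166659561) was the reverse of the 2 before it in numbers, with 0 to 4 normalized reads in 19 libraries and 234 to 441 (median 343) in 9. ATP5J2 encodes a membrane subunit of the ATP synthase. Its exon 3 of 4 (108 bases, chr7:124584377-124584484) had 9 to 26 in 12 libraries and 415 to 858 (median 573) in 16, and was thus never empty.

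LDHA encodes the A subunit of lactate dehydrogenase, which interconverts pyruvate and lactate. Exon 5 of 8 (174 bases, chr11:47777177-47777350) had 0, 0, 1, 2 and 2 normalized reads in 5 libraries and 119 to 642 (median 363) in 23. The 5 low libraries were HD replicates 3, 4 and 7, BD replicate 5 and LD replicate 4, and they came from cohorts 4, 5 and 7b. Exon 6 (118 bases) was a second such exon, with 0 to 2 in 9 libraries and 51 to 164 in 19. In the 5 libraries that lacked exon 5, exon 6 was at 0 to 2 as well, so the exon pair split 24 of 28 libraries the same way. The other 4 libraries had exon 5 without exon 6. Exon 4, before them, had 644 to 958 normalized reads in the 5 libraries.

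The V-ATPase, the proton pump that acidifies synaptic vesicles and lysosomes, had 6 such exons in 4 of its 16 genes with kept exons. This group was put together after the values were seen, 12 of the 16 genes were in the highest quintile by normalized reads, and 5 of the 6 exons had a gap in their own scores or against the gene's median. Over all genes with kept exons 2.73% held such an exon, and in the highest quintile 9.11%. ATP6V1A encodes the catalytic A subunit. Its exon 4 of 15 (204 bases, chr3:163256136-163256339) had 0 to 2 normalized reads in 6 libraries and 79 to 269 (median 111) in 22. Exon 5 was also lower there, at 23 to 38 against 100 to 306. The last listed exon of ATP6V1A was a further member, and the pair split 11 of 28 libraries the same way. ATP6V1G1 exon 2 of 3 (101 bases, chr9:86346829-86346929) had 0 to 4 in 22 libraries and 79 to 115 (median 97.5) in 6. ATP6V1E1 exon 9 of 9 (220 bases) had 35 to 100 in 21 libraries and 240 to 345 in 7.

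RPL4, a protein of the large ribosomal subunit, was read at 7380 to 10769 normalized reads per library. Its exon 10 of 10 (68 bases, chr14:43172628-43172695) had 0 to 3 in 22 libraries and 70 to 181 (median 160) in 6, of which 1 was LD, 2 BD, 1 HD and 2 VHD. DEK encodes a chromatin protein. Its exon 2 of 10 (69 bases, chr6:18579774-18579842) had 0 to 2 in 17 libraries and 32 to 62 (median 49) in 11, and the exons on both sides of it were present in every library, at 29 or more.

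SUMO2 encodes a small protein that is attached to other proteins much like ubiquitin. Its exon 2 of 4 (72 bases, chr17:68602387-68602458) had 0 to 2 normalized reads in 12 libraries and 71 to 168 (median 115) in 16. MYL12B encodes a regulatory light chain of non-muscle myosin. Its exon 4 of 4 (125 bases, chr18:6226494-6226618) had 0 to 3 in 12 libraries and 91 to 208 (median 135) in 16. DBI encodes an acyl-CoA binding protein from which peptides that bind GABA-A receptors are cut. Its exon 6 of 6 (163 bases, chr2b:11763884-11764046) had 0, 0, 1, 1 and 3 in 5 libraries and 35 to 73 (median 53.0) in 23.

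**Figure D2:**
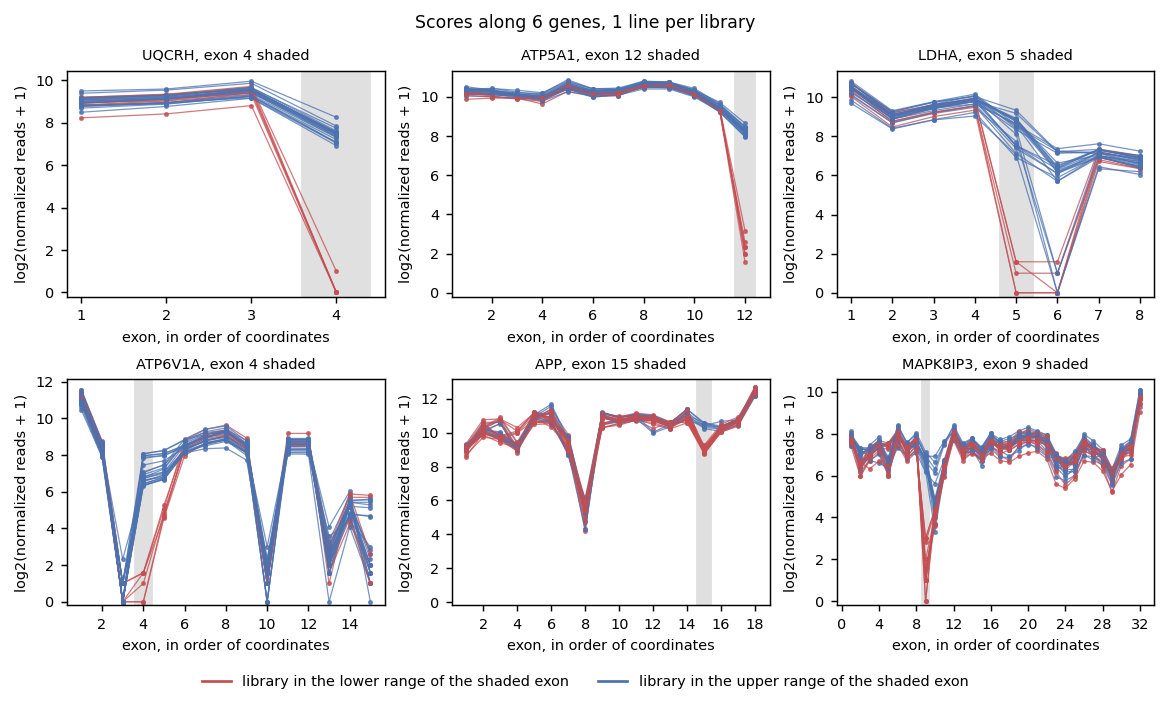
Each panel plots log2(normalized reads + 1) against exon number along 1 gene, 1 line per library, with red lines for the libraries in the lower range of the shaded exon and blue for those in its upper range. The lines run together along the other exons and part at the shaded exon, and in ATP6V1A, LDHA and MAPK8IP3 some lines also part at the exon beside it.

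Of the 268 genes, 245 held 1 such exon, 19 held 2, 2 held 3 and 2 held 4. UQCRH and NDUFB2 held 4 each, which is every kept exon they have, and SUMO2 and MYL12B held 3 each. The relative value is a difference from the gene's mean, so in a gene with few exons 1 exon that drops lifts all others. In UQCRH the scores of exons 1, 2 and 3 overlapped between the ranges: exon 1 had 299 to 586 normalized reads in the 6 libraries without exon 4 and 360 to 722 in the 22 with it. The same held for exons 1 and 4 of SUMO2, exons 1 and 2 of MYL12B, and exons 1 to 3 of NDUFB2. Of the 297 exons, 224 also had a gap of at least 1 in their own log2 scores and 267 against the median of the gene's exons in place of the mean. For 20 exons in 14 genes neither was the case. Of these 20, 13 lay in genes with at most 5 kept exons, and 8 of the 14 genes held another of the 297 exons.

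The exons were short. Their median length was 74.0 bases against 134 for all kept exons, and 117 of 297 (39.4%) were at most 60 bases long against 5.94% of all kept exons. Exons of at most 27 bases made up 17 of 297 (5.72%) against 0.260%. Per 1000 kept exons, 49.9 of those of 1 to 30 bases were among the 297, 15.5 of those of 31 to 60 bases, 3.82 of 61 to 90, 2.03 of 91 to 120, 1.26 of 121 to 200, 1.46 of 201 to 400 and 0.323 of those over 400. A length that is a multiple of 3, which keeps the reading frame when an exon is skipped, was about as common (39.1%) as among all kept exons (38.1%). Between internal exons the shares were 42.7% and 39.1%.

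The exons also lay in genes with many reads. Among genes ranked by their mean normalized reads (not divided by gene length), the lowest quintile held 0 of the exons, and the rate per 1000 kept exons was 0.775, 1.28, 2.28 and 6.19 in the other quintiles in rising order. For exons of at most 60 bases the rate reached 40.3 per 1000 in the highest quintile, and for longer exons 3.88. The median score of the exons themselves, averaged over the libraries, was 47.0 against 47.9 for all kept exons. At 2586 normalized reads, the median level of their genes was above that of all genes with kept exons, 670. A gap can be told from counting error only where reads are many, so these rates include what depth allows to be seen.

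The place in the gene was uneven. By coordinate, 99 of the 297 were the last listed exon of their gene and 6 were the first, although the table has about as many kept first exons (8551) as last ones (8350). Per 1000 kept exons that is 11.9 of the last and 0.702 of the first, with 2.08 of the internal exons. Of the 6 first exons, only that of COX7A2, a subunit of cytochrome c oxidase, also had a gap of at least 1 in its own scores or against the gene's median. The other 5 were those of SUMO2, MYL12B, UQCRH, NDUFB2 and ATP6V1G1, each in a gene with another of the 297 exons. With that condition the counts were 98 last exons and 1 first exon. Among end exons of at most 200 bases, 82 of 1765 last ones and 2 of 1973 first ones were members, 46.5 and 1.01 per 1000. In the highest quintile of genes the last ones reached 104 per 1000, or 50 of 479, and none of 524 first ones was a member. The first and last exons of at most 200 bases were alike in length (median 130 and 131 bases). Strand was not given, so these counts cannot be assigned to the start or the end of transcription.

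**Figure D3:**
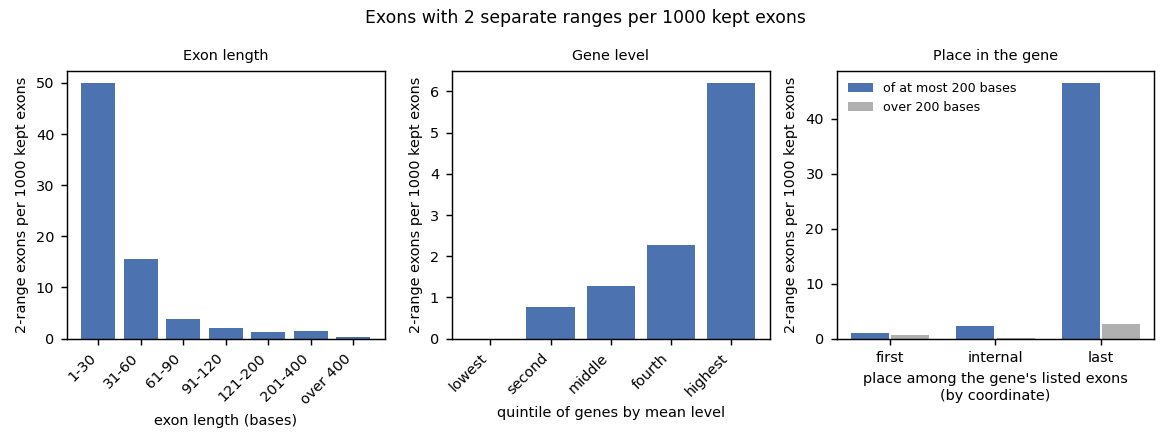
Bars give the number of 2-range exons per 1000 kept exons by exon length in bases, by quintile of genes in mean normalized reads, and by place among the gene's listed exons (blue for exons of at most 200 bases, grey for longer ones). The rate is highest in exons of 1 to 30 bases (49.9), in the highest quintile of genes (6.19) and in short last listed exons (46.5).

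Last listed and internal exons differed in how empty the lower range was. Among the 99 last exons, 65 (65.7%) had every lower library at 10 normalized reads or less, and the median over exons of the lower score was 6.56% of the upper score. Among the 192 internal exons, 41 (21.4%) had such a lower range, and the median lower score was 20.4% of the upper. Internal members were at most 60 bases long in 111 of 192 (57.8%), against 6.67% of internal kept exons. Last or first exons that short were 6 of 105.

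Last listed exons with a clear lower range included those of SV2A, AQP4, PSMB4 and YWHAE, chosen after their values were seen. SV2A encodes a synaptic vesicle glycoprotein. Its exon 13 of 13 (119 bases, chr1:123863895-123864013) had 0 to 8 normalized reads in 10 libraries and 40 to 120 in 18, and all 8 libraries of cohort 7a were in the upper range. All libraries of cohort 7a were in the upper range for 10 of the 297 exons. AQP4 encodes the water channel of astrocytes. Its exon 5 of 5 (95 bases, chr18:15321802-15321896) had 1 to 16 in 21 libraries and 118 to 227 in 7, of which 4 were LD, 2 BD, 1 HD and 0 VHD. PSMB4 encodes a proteasome subunit. Its exon 7 of 7 (124 bases, chr1:125485242-125485365) had 14 to 47 in 11 libraries and 281 to 447 in 17. YWHAE, a 14-3-3 adaptor protein, had 63 to 109 in 16 libraries and 618 to 1090 in 12 at its exon 6 of 6.

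Very short internal exons are shown by MAPK8IP3, ANKS1B, PTPRA and KCNQ3, chosen after their values were seen. MAPK8IP3 encodes a scaffold protein of the JNK pathway that also links cargo to motor proteins. Its 12-base exon 9 of 32 (chr16:1738812-1738823) had 0 to 7 normalized reads in 13 libraries and 70 to 138 in 15, while exon 8 had 138 to 230 and 136 to 263. Exon 10 (33 bases) was a member as well, with 9 to 29 in 23 libraries and 48 to 120 in 5. ANKS1B encodes a postsynaptic scaffold protein. Its 12-base exon 5 of 13 (chr12:97965900-97965911) had 0 to 11 in 9 libraries and 79 to 241 in 19, and 7 of 7 HD libraries were in the upper range. All HD libraries were in the upper range for 5 of the 297 exons. PTPRA encodes a receptor-type tyrosine phosphatase. Its 27-base exon 6 of 24 (chr15:35800455-35800481) had 8 to 20 in 15 libraries and 92 to 181 in 13. Beside it, exon 7 had 75 to 130 in the first 15 and 192 to 313 in the other 13. KCNQ3, a subunit of the M-type potassium channel, had 3 to 18 in 13 libraries and 42 to 94 in 15 at its 27-base exon 7 of 15 (chr8:131202032-131202058).

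All 4 genes of calcium/calmodulin-dependent kinase II, an abundant kinase of the postsynaptic density, held such exons, 7 in all. This group, too, was formed after the values were seen, and all 4 genes were in the highest quintile by normalized reads, in which 9.11% of genes held such an exon. CAMK2A had exon 6 of 18 (41 bases), with 168 to 265 normalized reads in 7 libraries and 286 to 1042 in 21, and exon 16 (60 bases), with 68, 164, 182, 236 and 269 in 5 libraries and 231 to 1051 in 23. The scores of exon 16 overlap because the whole gene varied from 7224 to 32678. CAMK2B had exon 18 of 20 (76 bases, chr7:64347009-64347084), with 63 to 132 in 13 libraries and 312 to 583 in 15. CAMK2D had exons 6 and 15 of 18 (38 and 55 bases). CAMK2G had exon 4 of 19, with 30 to 47 in 9 libraries and 120 to 216 in 19, and exon 13, with 20 to 38 in 12 libraries and 86 to 157 in 16. In none of the 3 genes with a pair did the exons sort the libraries alike: the pairs put 16 (CAMK2A), 14 (CAMK2D) and 15 (CAMK2G) of 28 libraries on the same side.

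Receptors and enzymes of transmission were among the 297 as well, chosen here after their values were seen. GAD1 encodes an enzyme of GABA synthesis, the main transmitter of CeA neurons. Its exon 12 of 17 (65 bases, chr2b:57754052-57754116) had 35 to 86 normalized reads in 19 libraries and 156 to 332 in 9, of which 0 were from cohort 4. All libraries of cohort 4 were in the lower range for 7 of the 297 exons. GABRG1 encodes a gamma subunit of the GABA-A receptor. Its exon 9 of 9 (247 bases, chr4:45978347-45978593) had 51 to 129 in 22 libraries and 208 to 546 in 6. GRIA3 encodes an AMPA receptor subunit, and its 54-base exon 5 of 17 had 13 to 54 in 17 libraries and 57 to 160 in 11. NTRK2 encodes the receptor of BDNF. Its 36-base exon 4 of 12 (chr9:10185209-10185244) had 238, 253, 269, 323 and 363 in 5 libraries and 696 to 1191 in 23.

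APP, also chosen after its values were seen, encodes the amyloid precursor protein. Its exon 15 of 18 (54 bases, chr7:21021395-21021448) had 429 to 611 normalized reads in 20 libraries and 1203 to 1548 in 8. Both ranges lay far above counting error. Exon 16 had 1050 to 1444 in the first 20 libraries and 1083 to 1629 in the other 8, so it did not part them. The 8 libraries were 4 LD, 0 BD, 3 HD and 1 VHD.

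The exon beside a member was usually not a member. Of 459 kept exons adjacent to the 297, 24 were members. That is a larger share than the 297 of all 109212 kept exons. In 4 adjacent pairs both exons had a gap in their own scores or against the gene's median. The adjacent exons that were not members had a median gap of 0.0981, close to the 0.0869 of all kept exons. Over the 28 libraries the log2 scores of the 297 had a median range of 4.09, those of adjacent non-members 1.34 and those of all kept exons 1.58.

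Different exons divided the animals differently. Over the 43919 pairs of exons in different genes, the median number of libraries on the same side was 14 of 28, with a 5th to 95th percentile of 9 to 19 and a range of 3 to 26. Of the 37 pairs within a gene, 8 put all 28 libraries on the same side and 12 put all on opposite sides, and these 20 pairs each include an exon with a gap in neither its own scores nor against the gene's median. In the 15 pairs where both exons had such a gap, the median was 15. SYNJ1, a phosphoinositide phosphatase of synaptic vesicle recycling, gave the lowest number, with 5 of 28 on the same side for exons 3 and 7. Exon 3 was in its upper range in 19 libraries and exon 7 in 12.

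Each library had 104 to 198 of the 297 exons in the upper range, with a median of 137. BD replicate 1 stood apart with 198, the second highest being 155, and it was also the shallowest library, with 1910514 reads. The lowest were LD replicate 1 (104), VHD replicate 4 (108) and HD replicate 1 (111). The share of exon values in the upper range was 45.8% among LD animals, 50.4% among BD, 45.5% among HD and 44.7% among VHD. Without BD replicate 1 the BD share was 46.4%. Both ranges occurred within all 4 drinking categories for 209 of the 297 exons and within all 4 cohorts for 205.

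**Figure D4:**
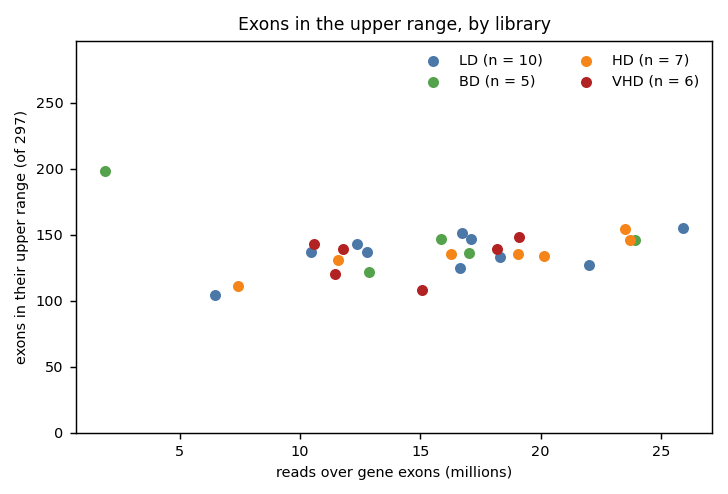
Each point is a library, with its reads over gene exons on the x axis and the number of the 297 exons in their upper range on the y axis, coloured by drinking category. The points lie between 104 and 155 except the shallowest library, BD replicate 1, at 198.

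The study compared animals by how much they drank, and the drinking category was not used in choosing the exons. The relative values of all 109212 kept exons were therefore compared between HD and VHD animals (13, called heavy) and LD and BD animals (15), with cohort as a term, using limma. After Benjamini-Hochberg adjustment over all kept exons at a threshold of 0.05, 0 of the 297 exons passed, as did 0 of 109212 (0%). At an unadjusted p under 0.05 there were 25 of 297 (8.42%) against 3.72% of all kept exons. The median log2 difference, heavy minus the rest, was -0.08 over the 297 and 0.00 over all, and 134 of the 297 were above 0. The standard error of such a difference had a median of 0.54 over the 297 and 0.14 over all kept exons, so differences were estimated less precisely for these exons. The 297 were chosen for a gap between libraries, and limma draws the spread of each exon toward that of exons of like level. Nothing is therefore read from their larger share at an unadjusted p, here or in the comparisons below.

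The single categories gave the same count. VHD, HD and BD against LD each had 0 of 297 and 0 of 109212 (0%) past the threshold in limma. At an unadjusted p under 0.05 there were 33 of 297 against 2.95% of all for VHD, 26 against 3.52% for HD and 36 against 7.57% for BD. Without BD replicate 1, the shallowest library, the last comparison had 22 of 297 and 4213 of all kept exons at that level. The test over all 4 categories had 0 of 297 past the threshold and 33 at an unadjusted p under 0.05, against 4.18% of all, and that over the 4 cohorts 0 and 30, against 3.42%. The comparisons with LD share the LD animals.

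The exon with the smallest p for heavy animals was exon 6 of 15 of PHACTR1, a regulator of actin and of protein phosphatase 1 (81 bases, chr6:13363669-13363749). It had 55 to 366 normalized reads (median 116) in LD animals, 56, 57, 83, 192 and 215 in BD, 59 to 284 (median 76.0) in HD and 32 to 82 (median 53.0) in VHD. The upper range held 5 of 10 LD, 2 of 5 BD, 1 of 7 HD and 0 of 6 VHD libraries, and the categories overlap. The relative value was lower by a log2 difference of -1.04 (95% interval -1.66 to -0.43, limma p = 0.00154, adjusted p = 1.0). The difference of heavy and other animals was -0.24 in cohort 4, -1.57 in cohort 7a and -0.60 in cohort 7b, the first and the last resting on 1 heavy animal each, and cohort 5 held heavy animals alone. Without cohort as a term it was -0.49.

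For VHD against LD the smallest p was that of SYNJ1 exon 3 of 28 (87 bases, chr7:13913869-13913955). LD animals had 150 to 318 normalized reads (median 252) and VHD animals 51 to 216 (median 70.5), with 10 of 10 LD and 2 of 6 VHD libraries in the upper range. BD animals had 61, 82, 215, 221 and 297, and HD animals 57 to 431. The log2 difference of VHD and LD was -1.77 (95% interval -2.75 to -0.80, limma adjusted p = 1.0). Most VHD animals came from the cohort that held heavy animals alone, and only the youngest cohort held both VHD and LD animals. With cohort as a term, the difference therefore rests directly on few animals.

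For HD against LD it was ATP6V1D exon 9 of 9, in a gene of the V-ATPase (162 bases, chr14:129291574-129291735). LD animals had 25 to 323 normalized reads (median 241), BD animals 157, 223, 224, 257 and 262, HD animals 43 to 251 (median 52.0) and VHD animals 29 to 213 (median 188). The upper range held 9 of 10 LD, 5 of 5 BD, 2 of 7 HD and 4 of 6 VHD libraries. The log2 difference of HD and LD was -1.42 (95% interval -2.34 to -0.50, limma adjusted p = 1.0). For heavy animals against the rest the log2 difference was -1.69, -1.07 and -1.84 in cohorts 4, 7a and 7b, the cohorts that held both. The first and the last rest on 1 heavy animal each. The exon was chosen for its small p in these same animals, so the shared direction is no separate evidence.

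For BD against LD, and over the 4 categories, it was exon 8 of 30 of ATP11B, a phospholipid flippase (48 bases, chr3:87984661-87984708). BD animals had 21, 24, 26, 31 and 32 normalized reads, all in the upper range, and LD animals 2 to 25 (median 5.50), 1 of 10 in the upper range. HD animals had 3 to 35 (2 of 7 in the upper range) and VHD animals 9 to 35 (5 of 6). The log2 difference of BD and LD was 2.12 (95% interval 1.26 to 2.99), with a limma adjusted p of 0.613. With a pseudocount of 8 in place of 1 it was 1.33. These scores are low, and in BD replicate 1 3 reads stand for 24.1 normalized reads. STK24, a kinase of the sterile-20 family, was chosen after its values were seen: exon 9 of 12 (57 bases) had 12, 56, 64, 66 and 91 in BD animals against 4 to 97 (median 12.5) in LD, 9 to 18 in HD and 4 to 15 in VHD. Its log2 difference of BD and LD was 1.58 (95% interval 0.77 to 2.40, limma adjusted p = 0.655).

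Between cohorts the smallest p was that of exon 15 of 18 of SLC25A12, the mitochondrial aspartate-glutamate carrier (116 bases, chr2b:58722209-58722324). Cohort 4 animals had 1 to 88 normalized reads (median 39.5), cohort 5 animals 1 to 6, cohort 7a animals 2 to 4, and cohort 7b animals 2, 3, 4, 4 and 70. The upper range held 4 of 8 animals of cohort 4, 1 of 5 of cohort 7b and none of the 15 others (limma p = 0.000684, adjusted p = 1.0).

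**Figure D5:**
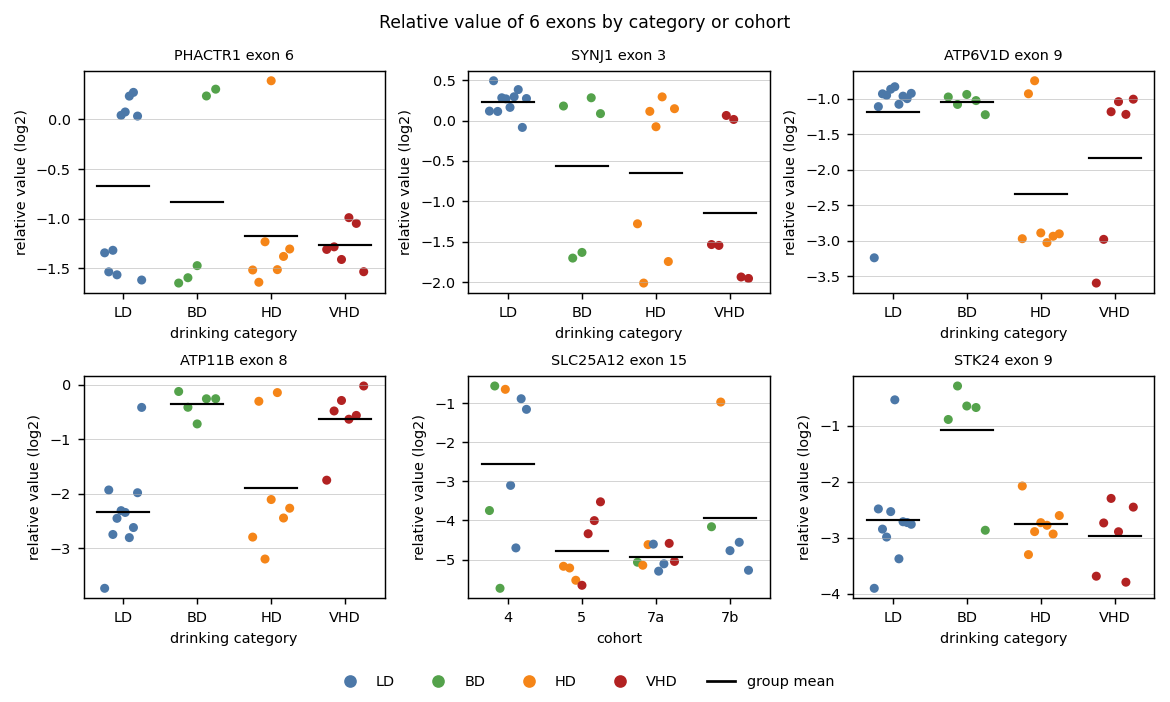
Relative values (log2) of 6 exons in each library, by drinking category or, for SLC25A12, by cohort, coloured by category, with black bars at the group means. The values sit in 2 bands, and most groups have animals in both bands.

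Tests on reads gave different counts depending on how the spread was estimated. edgeR's test of exon use, in which the exons of a gene share 1 estimate of spread, called 24 of the 297 exons for heavy animals against 56 of all 109212 (0.0513%), 12 higher and 12 lower, and at an unadjusted p under 0.05 it had 110 of 297 against 1.27% of all. The exons were chosen for varying more than the rest of their gene, and this test takes its spread from the whole gene, so nothing is read from the larger share of calls among them. An edgeR test with a spread of its own for each exon called 0 of 297 and 0 of 109212 (0%), with 31 of 297 (10.4%) and 4350 of all (3.98%) at an unadjusted p under 0.05. Among the 24 calls, ATP6V1D exon 9 had an adjusted p of 0.000231 in edgeR with the shared spread and 1.0 in limma. Of the 24 exons, 14 had a limma p under 0.05 before adjustment, and of all 297 exons 25 had. Both tests used the same libraries, so this overlap is no separate evidence.

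Gene families chosen by symbol can be set beside the 2.73% of all genes with kept exons that held such an exon. No exon lay in the 307 zinc finger genes, the 10 protocadherins or the 5 genes of the major histocompatibility complex. Of the zinc finger genes 9 were in the highest quintile by normalized reads and of the histocompatibility genes 0, and lists of 5 or 10 genes are too short for a share near 2.73% to show. Of 146 ribosomal protein genes 5 held such an exon, of 201 solute carriers 6 and of 41 detoxification genes 1 (GSTA4). Of 58 genes of 3 families of RNA-binding and splicing proteins (RBM, SRSF and HNRNP) 1 did, HNRNPC, with exons 8 and 9. Of 5 immune receptor genes 1 did (SIRPA). Of 73 genes of the respiratory chain and ATP synthase, a group formed after the values were seen, 10 held 17 exons, of which 11 had a gap in their own scores or against the gene's median. The other 6 were exons 1 to 3 of UQCRH and of NDUFB2. In the highest quintile of genes by normalized reads the share was 9.11%, and 30 of these 73 genes were in it.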

How the data were processed

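Total RNA was sequenced as stranded, rRNA-depleted libraries, per the labels' protocols. The submitters' processing notes name CASAVA, FastQC, STAR 2.3.0e and edgeR; no build is named in the sources used here. Exon values are a score: reads that the authors normalized and rounded to whole numbers. Gene values are a signal, the deposited normalized reads. Of the gene values, 100% lay within 0.02 of whole multiples of a step per library, so reads were recovered. Of 30 columns, 2 were not used here.

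Relative exon values were fitted in limma 3.58.1 (R 4.3.3; pseudocount 1, mean-variance trend, cohort as a term) over 109212 exons with two-sided tests and Benjamini-Hochberg adjustment. edgeR 4.0.16 was run on exon scores divided by the step and rounded. Scripts were tested on simulated data. The members, lists and tests were chosen with earlier results of these data known. Named exons are the 12 widest gaps (1 per gene), genes with most members (4 tied), the smallest p of each test and the 3 exons on each side of the threshold; other exons were chosen after their values were seen, and 1 named exon is not reported here. Of 268 gene symbols, 252 matched RefSeq symbols and 260 matched with synonyms. Alternatives were other pseudocounts, filters, references, gap settings and left-out libraries.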

Additional observations from a re-analysis of the deposited data

Results flagged for a closer look

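In groups of 4 to 10 animals, a library was picked out where its gap to the nearest other, divided by the range of the group, passed Dixon's 95% value. Of 72 groups examined, over 17 exons and the number of exons in the upper range, 20 were picked out. The usual rate of about 1 in 20 groups by chance does not apply to values chosen for a gap. It is therefore no yardstick for this count, and the libraries named below need not be unusual. The exons were chosen for a gap between libraries, so a group with 1 library on the far side of the gap meets this criterion readily, and no explanation was tested. All values below are relative values on the log2 scale.

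Among LD animals, replicate 4 was lowest for LDHA exon 5 (-5.53), replicate 8 for DBI exon 6 (-5.66) and replicate 1 for ATP6V1D exon 9 (-3.24), while replicate 1 was highest for RPL4 exon 10 (-3.18) and replicate 5 for STK24 exon 9 (-0.54). Among BD animals, replicate 1 was lowest for ATP5A1 exon 12 (-6.42), replicate 5 for LDHA exon 5 (-5.63) and STK24 exon 9 (-2.87), and replicate 4 for SUMO2 exon 2 (-4.74) and DBI exon 6 (-5.19).

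Among HD animals, replicate 5 was lowest for UQCRH exon 4 (-7.04), ATP6V1A exon 4 (-6.21) and DBI exon 6 (-4.89). Replicate 6 was highest for RPL4 exon 10 (-2.36) and replicate 4 for PHACTR1 exon 6 (0.39). Among VHD animals, replicate 1 was lowest for UQCRH exon 4 (-6.86), ATP6V1A exon 4 (-5.88) and ATP11B exon 8 (-1.75), and replicate 6 for ATP5A1 exon 12 (-7.85). Replicate 5 was highest for NDUFB2 exon 4 (-0.35).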

How the results depend on the processing

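The number of exons with 2 ranges was 297 as reported and 170 with a pseudocount of 8, 487 with a gap of at least 0.8, 105 with a gap of at least 1.5, 193 with at least 8 libraries on each side and 166 with a highest score of at least 100. The gene's median as reference gave 333 exons (267 shared with the 297), the mean of the other exons 362 (297 shared), no reference 435 (224 shared), at least 3 libraries on each side 371 (297 shared), and leaving out the 3 shallowest libraries 325 (273 shared). Leaving out each library in turn gave 290 to 311. For heavy drinkers 0 of the 297 exons passed in limma and 24 in edgeR with a spread shared by the exons of a gene; edgeR with a spread per exon, an alternative chosen after seeing the data, gave 0. In the 6 limma comparisons 0 of the 297 passed under every alternative run, including each library left out. Over all kept exons, BD against LD gave 0 to 2 calls under every alternative run. At an unadjusted p under 0.05 it had 4213 (without BD replicate 1) to 12354 exons as libraries were left out, and 3936 (scores of at least 50) to 10439 (no filter) under the other settings. For ATP11B in that comparison, the log2 difference ran from 1.97 to 2.31 as libraries were left out, and its adjusted p from 0.188 to 0.968; with a pseudocount of 8 the difference was 1.33. No reported difference of a single exon changed sign. No paired analysis was possible because the labels give no replicate numbers shared between categories. Depth limits the low scores, since 3 reads stand for 1.82 to 24.1 normalized reads.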

Other observations

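Exons of other genes, chosen after their values were seen, add cell functions that the report does not describe. RPS3, a protein of the small ribosomal subunit, had the longest last listed exon among the members, 1261 bases (exon 7 of 7), with 30 to 89 normalized reads in 20 libraries and 521 to 657 in 8. The GTPases CDC42 and RHOA, regulators of the actin cytoskeleton, both held a member: CDC42 exon 2 of 5 had 1 to 14 in 22 libraries and 76 to 96 in 6, and RHOA exon 5 of 5 had 9 to 35 in 17 and 114 to 163 in 11. Both calcineurin genes among the members, PPP3CB and PPP3R1, did so in a short exon of 30 and 40 bases. ADAR, which edits adenosine in RNA, had 0 to 2 at exon 16 of 16 in 20 libraries and 23 to 48 in 8. The glycolytic enzyme gene ENO1 had 175 to 240 at exon 11 of 12 in 9 libraries and 607 to 926 in 19.

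Some members were present together in no fixed combination within a gene. HNRNPC, an RNA-binding protein of the spliceosome, had 31 to 56 normalized reads in 14 libraries and 162 to 265 in 14 at exon 8 of 9 (26 bases), and 40 to 69 in 15 and 241 to 349 in 13 at exon 9. These adjacent exons put 11 of 28 libraries on the same side. In CNTN1, a neuronal cell adhesion protein, exons 2 and 17 put 15 on the same side, and in SDHC, a subunit of complex II, exons 2 and 4 put 16.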
